A study of Mus musculus with 4 samples.

Results

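The B cell receptor complex and its coreceptors were followed through 9 genes of the 32285 in the expression matrices, taken by name: Cd79a, Cd79b, Ms4a1, Cd22, Cd72, Siglecg, Blnk, Btk and Nfatc1. All 9 were measured in both libraries, and values from earlier work on these data were known when they were chosen. MC38, a colon carcinoma line of the mouse, formed subcutaneous tumours for 18 days in female C57BL/6 mice of 12 to 16 weeks. The library labelled Blimp-1 KO came from Prdm1 f/f CD19cre recipients, and the control library from Prdm1 f/f recipients, so that both carried floxed Prdm1 alleles and differed in the cre. Tumours of 11 recipients per genotype were used, from which B220+ cells and CD138+ cells were sorted; the sources used here do not give the ratio at which they were mixed. With 1 expression library per genotype there was no test, and the spread between mice is unknown. The cre acts in the B lineage; the labels do not say whether it was heterozygous.

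The B cell receptor is a membrane immunoglobulin that binds antigen, held to a pair of signalling chains, CD79a and CD79b, whose cytoplasmic tails carry the activation motifs. Upon binding, Src-family kinases and Syk phosphorylate these tails, and the adaptor BLNK gathers BTK and phospholipase C gamma, so that calcium rises and NFAT transcription factors move to the nucleus. CD22, CD72 and Siglec-G are coreceptors that restrain this signal through recruited phosphatases, and CD20, made by Ms4a1, is a membrane protein found on mature B cells. Plasma cells secrete antibody, and Blimp-1, the repressor made by Prdm1, is known to shut off much of the B cell programme as they form.

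Upstream sequences are shown for 4 of the 6 genes with a window, from Blnk, the least reduced in plasma cells, to Cd22 and Cd72, among the most reduced, so that they can be set beside the values that follow. Each is a RefSeq window on GRCm38.p6 from 250 bases before to 50 bases after a transcript start, given 5′ to 3′ on the gene's strand. Capitals mark matches on either strand to an octamer (ATGCAAAT), to an EBF1 motif (TCCC and GGGA with any 2 bases between them) or to an E-box (CAGGTG). A window may start at an inner transcript start of its gene. Of the 4 shown, those of Cd79a and Blnk lie at the outer end of the annotated gene, and those of Cd22 and Cd72 at an inner start. The windows are Cd79a at chr7:24897247-24897546 (plus strand), Blnk at chr19:40994172-40994471 (minus strand), Cd22 at chr7:30878979-30879278 (minus strand) and Cd72 at chr4:43454577-43454876 (minus strand).
Cd79a: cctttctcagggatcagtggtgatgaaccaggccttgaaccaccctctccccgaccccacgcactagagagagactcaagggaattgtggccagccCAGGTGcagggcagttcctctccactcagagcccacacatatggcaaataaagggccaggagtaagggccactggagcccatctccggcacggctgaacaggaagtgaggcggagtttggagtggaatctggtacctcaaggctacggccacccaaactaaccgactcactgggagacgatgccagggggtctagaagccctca
Blnk: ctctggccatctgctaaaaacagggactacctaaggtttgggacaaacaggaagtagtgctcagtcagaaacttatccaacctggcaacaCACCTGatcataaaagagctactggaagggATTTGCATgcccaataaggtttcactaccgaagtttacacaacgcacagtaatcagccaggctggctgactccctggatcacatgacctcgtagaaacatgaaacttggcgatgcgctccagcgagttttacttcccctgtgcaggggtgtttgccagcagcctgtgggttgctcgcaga
Cd22: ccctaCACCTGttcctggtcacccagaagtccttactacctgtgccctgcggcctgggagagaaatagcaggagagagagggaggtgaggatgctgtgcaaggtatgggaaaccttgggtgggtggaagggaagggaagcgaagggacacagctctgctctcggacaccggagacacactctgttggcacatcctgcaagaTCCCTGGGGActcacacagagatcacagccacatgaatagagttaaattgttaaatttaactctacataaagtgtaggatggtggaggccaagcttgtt
Cd72: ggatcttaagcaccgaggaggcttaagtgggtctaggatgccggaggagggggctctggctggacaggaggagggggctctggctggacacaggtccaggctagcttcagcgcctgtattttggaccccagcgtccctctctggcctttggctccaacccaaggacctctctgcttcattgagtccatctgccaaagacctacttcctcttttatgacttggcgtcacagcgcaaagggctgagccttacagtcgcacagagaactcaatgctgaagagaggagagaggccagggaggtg
A window was found for 6 of the 9 genes, and 3 of these 6 held a match. Blnk held the octamer, in the reverse form ATTTGCAT, 130 bases before the start. Cd22 held the EBF1 motif, as TCCCTGGGGA, 49 bases before the start, and Cd79a, Cd22 and Blnk each held an E-box. No match to these motifs or to GAAAGTG, a core of Blimp-1 sites, lay in the windows of Cd72, Siglecg and Btk, and GAAAGTG was in none of the 6. Among all 32851 windows of the same length, 1.74% held the octamer, 0.904% the EBF1 motif, 20.2% the E-box and 4.81% GAAAGTG. The matches are descriptions of letters, not of binding, and no 2 matches overlap.

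The KO library had 897 barcodes and 5463434 UMIs, with a median of 3966 per barcode, and the control library had 816 barcodes and 6976374 UMIs, with a median of 5851. After filtering, 866 KO cells and 802 control cells were kept. Of these, 287 KO cells and 238 control cells fell into 3 clusters named B cell-like from markers that do not include the 9 genes. Their median depth was 2713 UMIs in KO cells and 3054.5 in control cells. Levels are given as CPM, the UMIs of a gene per 1000000 UMIs summed over a group of cells, and every interval is a 95% interval that covers counting error only. The files of the libraries carry different date stamps, and genotype cannot be told apart from the batch of its library. The libraries shared 3 cell barcodes. Prdm1 itself had 15.9 CPM (16 UMIs) in KO B cells and 1.10 CPM (1 UMI) in control B cells, against 43.1 CPM in control Jchain-high cells. These counts cover the whole gene and the sources used here do not say which exons are floxed, so they do not check the genotype labels.

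Within each library, B cells were split by Fcer2a, the gene of the low-affinity IgE receptor CD23, a surface protein of follicular B cells. A cell with 1 or more Fcer2a UMIs was called positive, which gave 68 positive and 219 negative KO cells, and 126 positive and 112 negative control cells. At these depths a cell without an Fcer2a UMI may still express the gene. The clusters differed in their makeup. One was rich in Fcer2a and held 136 KO and 197 control cells. The second is named here after Fcrl5, an Fc receptor-like gene, and held 132 KO and 25 control cells. Fcrl5 was more than 2-fold higher there than in the Fcer2a-rich cluster in KO cells. In control cells it had too few UMIs for that comparison. The last was marked by the interferon-induced gene Ifit3 and held 19 KO and 16 control cells. Of the Fcer2a-negative cells, 130 of 219 in the KO library and 24 of 112 in the control library lay in the Fcrl5 cluster.

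Jchain-high cells were those with 100 or more UMIs of Jchain, the chain that joins IgA and IgM into polymers. The KO library held 0 among 866 kept cells, a share of 0% (0 to 0.425), and the control library held 47 among 802, a share of 5.86% (4.34 to 7.72). The mixing of sorted cells can set such shares. Jchain counts left a wide gap around the cut. The lowest Jchain-high cell had 291 Jchain UMIs and the median was 793, whereas the highest cell under the cut had 80 in the KO library and 3 in the control library. All 47 lay in the cluster named plasma cell-like, 45 had a heavy-chain contig, 41 of these were IgA, and the 45 were 45 different clones. Plasma cell markers were checked against the name. Tnfrsf17, the survival receptor BCMA, had 502 CPM in Jchain-high cells, against 1.99 CPM in KO B cells and 0 in control B cells. Sdc1, which encodes the sorted marker CD138, had 109 CPM in Jchain-high cells, against 0 in KO B cells and 1.10 CPM in control B cells. Of the B cell markers, Pax5, Spib, Fcmr, Cr2 and Ighd had 0 UMIs in Jchain-high cells.

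**Figure D1:**
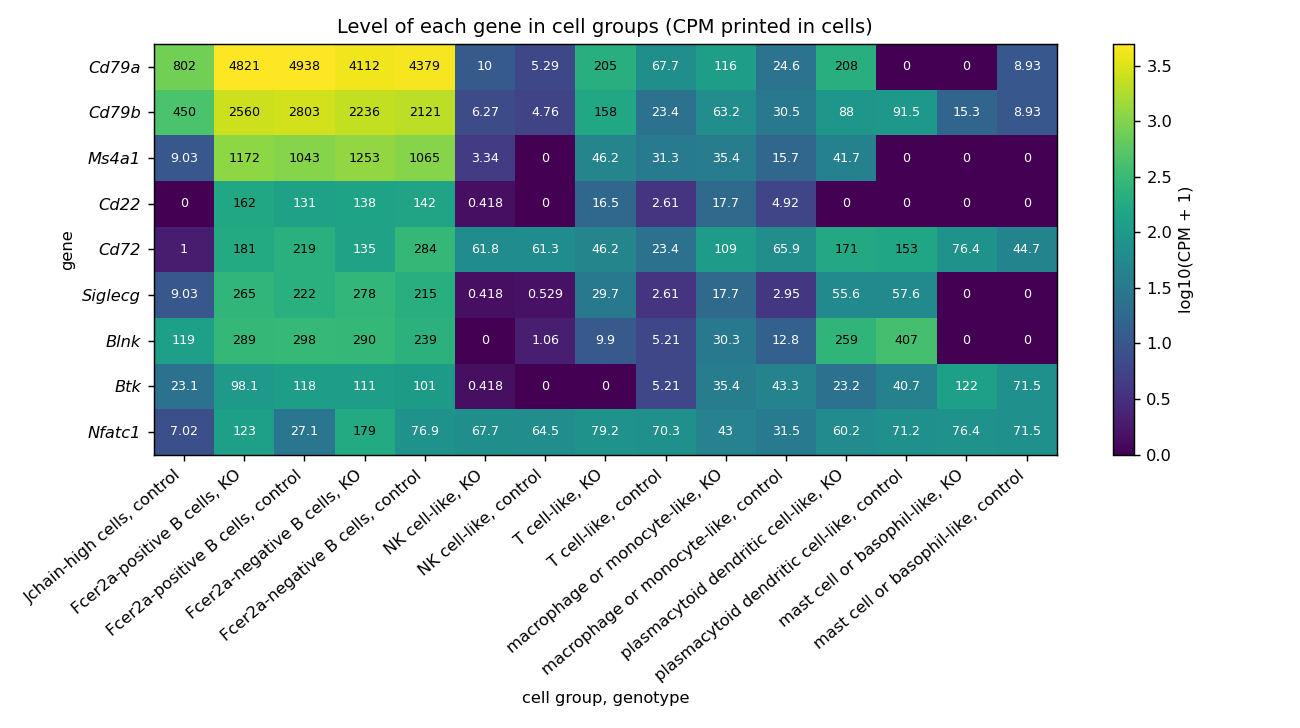
Level of each of the 9 genes (rows) in cell groups of the KO and control libraries (columns, KO left of control). Colour is log10(CPM + 1) and the CPM is printed in each square; Cd79a stands at 802 in Jchain-high cells and between 4112 and 4938 in the 4 groups of B cells.

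In Jchain-high cells the 9 genes stood below control B cells by widely different folds. Ms4a1, Cd22, Cd72 and Siglecg had 0 to 9 UMIs in Jchain-high cells and were at least 24.2-fold lower than in control B cells, Cd79a, Cd79b, Btk and Nfatc1 were between 4.7-fold and 7.8-fold lower, and Blnk was 2.22-fold lower. Nfatc1 was as scarce as Ms4a1 and Siglecg in Jchain-high cells, with 7 UMIs against 9 of each, but was also low in control B cells. All 9 were more than 2-fold lower, where 47.4% of all 3688 genes with at least 50 UMIs in the comparison were 2-fold lower and 57.2% were past 2-fold in either direction. The median gene was itself lower, with a median log2 ratio of -0.93. The 9 genes had a median log2 ratio of -2.96.

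The signalling chains were lower per UMI and alike per cell. Cd79a (ENSMUSG00000003379, chromosome 7, 24897497 to 24901858) had 802 CPM (748 to 860) in Jchain-high cells, against 4627 CPM (4489 to 4769) in control B cells, a ratio of 0.173 (0.161 to 0.187). Cd79b (ENSMUSG00000040592, chromosome 11, 106311341 to 106314562) had 450 CPM in Jchain-high cells and 2424 CPM in control B cells, a ratio of 0.186 (0.167 to 0.206). Jchain-high cells had a median of 20862 UMIs, far more than B cells. Each Jchain-high cell carried Cd79a UMIs, with a lowest count of 3, a median of 12 and a highest of 123, against 0, 15 and 127 in control B cells. Cd79b counts ran from 1 over a median of 9 to 29 in Jchain-high cells, and from 0 over a median of 8 to 58 in control B cells. The distributions of both genes overlapped almost wholly, and mean UMIs per cell stood at ratios of 0.959 for Cd79a and 1.03 for Cd79b. One Jchain-high cell gave 15.4% of the group's Cd79a UMIs. After each cell was thinned to 1500 UMIs, Cd79a and Cd79b were both seen in 36.2% of Jchain-high cells, against 92.7% of control B cells and 0% of 156 control NK-like cells. Without thinning, Cd79a was seen in 100% of Jchain-high cells, 99.2% of control B cells and 0.641% of control NK-like cells, whose median depths were 20862, 3054.5 and 8289 UMIs.

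**Figure D2:**
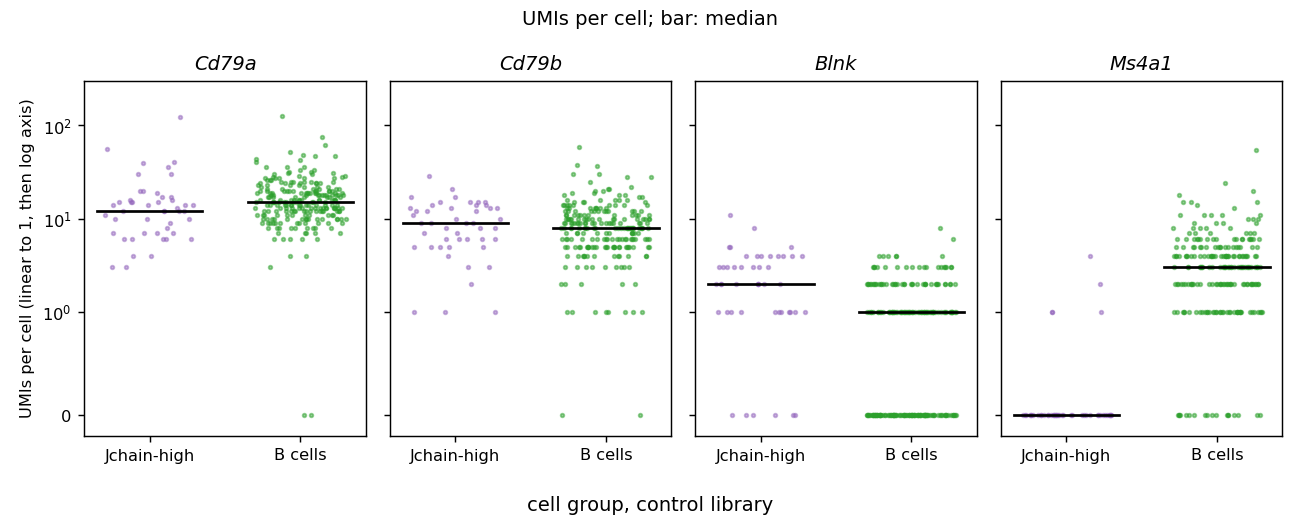
UMIs per cell of Cd79a, Cd79b, Blnk and Ms4a1 in the 47 Jchain-high cells (left in each panel) and the 238 B cells (right) of the control library, on an axis that is linear to 1 and logarithmic above; each point is a cell and the bar is the median. Median Cd79a is 12 in Jchain-high cells and 15 in B cells, and median Ms4a1 is 0 in Jchain-high cells and 3 in B cells.

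Ms4a1 (ENSMUSG00000024673, chromosome 19, 11249679 to 11266149) had 9 UMIs in all Jchain-high cells together, in 5 of the 47 cells. This was 9.03 CPM (4.13 to 17.1), against 1055 CPM in control B cells, which is 117-fold lower. The inhibitory coreceptors were as scarce. Cd22 (ENSMUSG00000030577, chromosome 7, 30865404 to 30880342), a lectin that binds sialic acid and recruits the phosphatase SHP-1, had 0 UMIs in Jchain-high cells and 125 UMIs (137 CPM) in control B cells, at least 45.5-fold lower with the 0 set to 3 counts. Cd72 (ENSMUSG00000028459, chromosome 4, 43447724 to 43455102), another SHP-1 recruiting receptor, had 1 UMI in Jchain-high cells and 233 UMIs (255 CPM) in control B cells, a ratio of 0.00393 (9.9e-05 to 0.0221). Siglecg (ENSMUSG00000030468, chromosome 7, 43408192 to 43418349), the Siglec that damps calcium signals in B cells, had 9.03 CPM in Jchain-high cells and 218 CPM in control B cells, a ratio of 0.0414 (0.0187 to 0.0802). For these 4 genes the level was also lower per cell, with ratios of mean UMIs per cell of 0.0473 for Ms4a1, 0.0217 for Cd72 and 0.229 for Siglecg and no UMI for Cd22.

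Blnk, the adaptor, was the least reduced of the 9. Blnk (ENSMUSG00000061132, chromosome 19, 40928927 to 40994221) had 119 CPM (98.9 to 143) in Jchain-high cells and 265 CPM (233 to 301) in control B cells, a ratio of 0.450 (0.358 to 0.563). Per cell the order turned round, with a mean of 2.53 UMIs in Jchain-high cells and 1.02 in control B cells. With immunoglobulin and Jchain UMIs left out of the totals its ratio was 0.833, and divided by the median ratio of all genes it was 0.856, so that under either scaling 8 of the 9 genes and not Blnk were past 2-fold. Btk (ENSMUSG00000031264, chromosome X, 134542334 to 134583628), the kinase that activates phospholipase C gamma, had 23.1 CPM in Jchain-high cells and 108 CPM in control B cells, a ratio of 0.213 (0.129 to 0.337) per UMI and 1.18 per cell. Nfatc1 (ENSMUSG00000033016), a calcium-dependent transcription factor, had 7.02 CPM (7 UMIs) in Jchain-high cells and 54.8 CPM (50 UMIs) in control B cells, a ratio of 0.128 (0.049 to 0.284) per UMI and 0.709 per cell. Both rest on few UMIs in Jchain-high cells, 23 for Btk and 7 for Nfatc1.

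**Figure D3:**
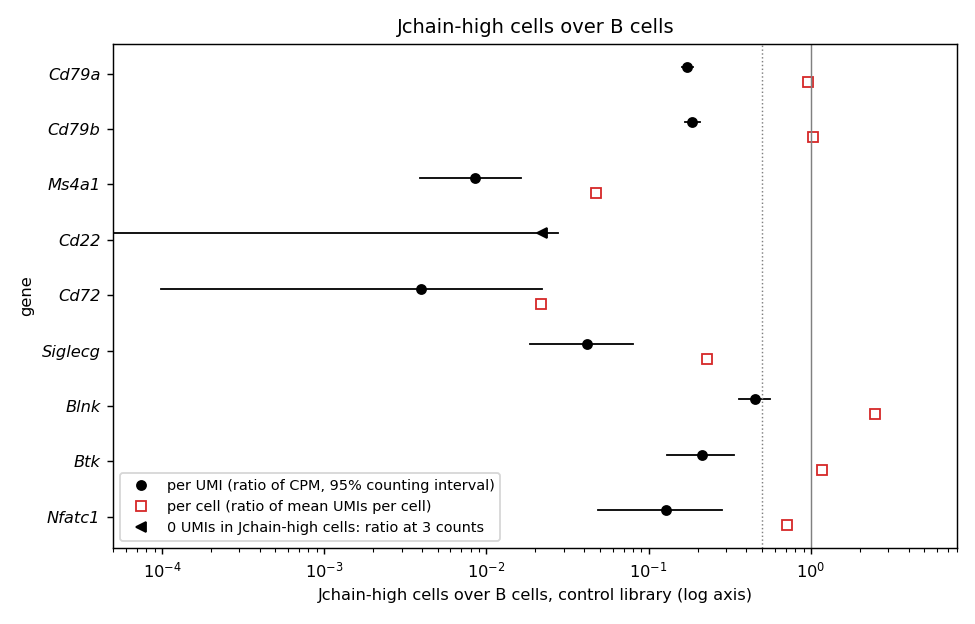
Ratio of each gene in Jchain-high cells over B cells of the control library on a log axis, per UMI with 95% counting intervals (black) and per cell (red squares); the triangle gives Cd22, with 0 UMIs in Jchain-high cells, at 3 counts. Ms4a1, Cd72 and Siglecg lie below 0.5 on both scales, and Blnk lies at 0.450 per UMI and 2.49 per cell.

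Most other measured genes of the pathway were lower too. Of the proximal signalling genes with at least 50 UMIs in the comparison, 18 of 19 were 2-fold lower in Jchain-high cells, where 47.4% of all genes were. Bank1, an adaptor, had 2.01 CPM in Jchain-high cells and 421 CPM in control B cells. Lyn, the kinase that phosphorylates the CD79 tails, had 29.1 CPM in Jchain-high cells and 282 CPM in control B cells, and Csk, which restrains Src-family kinases, had 115 CPM in Jchain-high cells and 350 CPM in control B cells. Of the activating coreceptors, Cd81, a tetraspanin, had 102 CPM in Jchain-high cells and 366 CPM in control B cells, a ratio of 0.280 (0.222 to 0.350), and Cr2, the complement receptor CD21, had 0 UMIs in Jchain-high cells and 63.6 CPM in control B cells. All 5 measured inhibitory genes were lower, among them Ptpn6, which encodes SHP-1, with 23.1 CPM in Jchain-high cells and 414 CPM in control B cells. Of the calcium and NFAT genes only 5 of the 11 listed had enough UMIs, and 3 of these 5 were 2-fold lower, which is near the 47.4% of all genes. The antigen-binding chains were uneven. Ighd had 0 UMIs in Jchain-high cells and 253 CPM in control B cells, at least 84.1-fold lower with the 0 set to 3 counts. Ighm had a ratio of 0.511 (0.457 to 0.571), with 495 CPM in Jchain-high cells and 970 CPM in control B cells. Igkc was 14.8 times as high in Jchain-high cells, where 9.82% of all genes were 2-fold higher, and free immunoglobulin RNA in droplets can add to such counts, which was not tested.

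No KO cell reached the Jchain cut, so the state of the 9 genes in plasma cells could not be compared between genotypes. The KO library had 6 kept cells with 5 or more Jchain UMIs, and no control cell lay between 5 and the cut of 100. Of the 6, 5 had an IgA contig and 1 an IgG2c contig, 4 lay in B cell clusters and 2 in an unnamed cluster led by Gzmc, Xcl1 and Gzmb. The marker list that scored best for this unnamed cluster was that of cycling cells, with 6 of its markers detected. The cell with 80 Jchain UMIs had 22 Cd79a, 17 Ms4a1 and 2 Blnk UMIs and none of Cd22, Cd72, Siglecg and Nfatc1. The cell with 66 had 20 Cd79a, 12 Ms4a1, 12 Blnk, 4 Cd72 and 2 Cd22 UMIs. All 6 cells carried Ms4a1, between 6 and 17 UMIs, whereas 5 of the 47 control Jchain-high cells did. The depth of these 6 ran from 9369 to 23803 UMIs, and the part of doublets in the 2 cells of the unnamed cluster was not tested.

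Between genotypes, the 9 genes stood close together in B cells, with 2 exceptions. Nfatc1 was higher and Cd72 lower in KO B cells, so that 2 of 9 were past 1.5-fold, where 11.5% of all 4339 genes were. Nfatc1 had 168 CPM (144 to 195) in KO B cells and 54.8 CPM (40.7 to 72.2) in control B cells, a ratio of 3.07 (2.22 to 4.29). Cd72 had 144 CPM (122 to 170) in KO B cells and 255 CPM (224 to 290) in control B cells, a ratio of 0.564 (0.456 to 0.697). Neither pair of intervals overlapped. In thinned cells, Nfatc1 was seen in 21.7% (17.0 to 27.0) of KO B cells and 7.26% (4.29 to 11.4) of control B cells, and Cd72 in 18.4% (14.0 to 23.5) of KO B cells and 29.9% (24.1 to 36.2) of control B cells. Without thinning, Nfatc1 was seen in 35.2% of KO and 17.2% of control B cells, and Cd72 in 27.9% of KO and 47.1% of control B cells. NK-like cells also hold both genes, with thinned shares of 13.9% in KO and 11.5% in control cells for Nfatc1 and 10.7% in KO and 7.69% in control cells for Cd72.

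The receptor chains differed little. Cd79a had 4256 CPM (4129 to 4385) in KO B cells and 4627 CPM in control B cells, a ratio of 0.920 (0.881 to 0.960). Cd79b had 2302 CPM in KO B cells and 2424 CPM in control B cells, a ratio of 0.950 (0.895 to 1.01). Ms4a1 had 1236 CPM in KO B cells and 1055 CPM in control B cells, a ratio of 1.17 (1.08 to 1.28). How far libraries of 1 genotype would differ was not measured here. Siglecg had 275 CPM in KO B cells and 218 CPM in control B cells, a ratio of 1.26 (1.05 to 1.52), and Cd22 had 143 CPM in KO and 137 CPM in control B cells, a ratio of 1.04 (0.816 to 1.34). Blnk stood at 290 CPM in KO and 265 CPM in control B cells, a ratio of 1.09 (0.920 to 1.30), and Btk at 108 CPM in both, a ratio of 0.999 (0.754 to 1.32). Over all 9 genes the median log2 ratio was 0.06, against -0.06 over all genes.

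**Figure D4:**
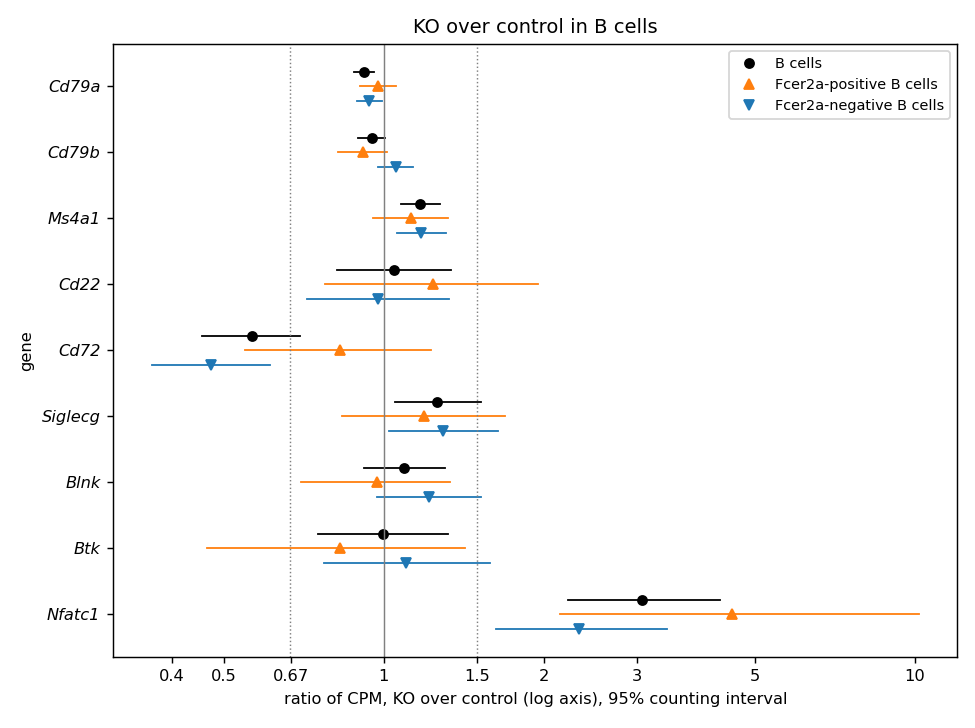
Ratio of CPM, KO over control, of each gene in B cells (black circles), Fcer2a-positive B cells (orange) and Fcer2a-negative B cells (blue) on a log axis, with 95% counting intervals; dotted lines mark 1.5-fold. Nfatc1 lies at 3.07 and Cd72 at 0.564 in B cells, and the other 7 genes lie between 0.920 and 1.26.

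In NK-like cells, the largest other class, neither gene was past 1.5-fold. Nfatc1 had 67.7 CPM in KO NK-like cells and 64.5 CPM in control NK-like cells, a ratio of 1.05 (0.825 to 1.34). Cd72 had 61.8 CPM in KO and 61.3 CPM in control NK-like cells, a ratio of 1.01 (0.785 to 1.30). Over all kept cells outside the B cells and Jchain-high cells, Nfatc1 stood at a ratio of 1.22 (1.02 to 1.45) and Cd72 at 1.17 (0.991 to 1.38). Transcripts of B cell genes were commoner in these other cells of the KO library, where 4 of 8 genes were 1.5-fold higher, against 5.28% of all 9281 genes. Cd79a had 74.6 CPM in KO cells and 12.4 CPM in control cells, a ratio of 6.03 (4.58 to 8.04), and Ms4a1 had 19.7 CPM in KO and 5.59 CPM in control cells, a ratio of 3.52. Cd79b stood at a ratio of 3.17 and Siglecg at 2.58. These stand far below the B cell levels. The Cd79a UMIs lay in few cells. Of 326 in these KO cells, 123 came from 5 of 34 cells of the unnamed cluster led by Gzmc, Xcl1 and Gzmb. That cluster scored best for cycling cell markers, and 5 of its 34 KO cells had a heavy-chain contig. Only 4 of 302 KO NK-like cells and 6 of 42 KO T cell-like cells carried any. A heavy-chain contig was found in 16 of the 579 KO cells and 2 of the 517 control cells, and the part of doublets was not tested. The part of these transcripts in the genotype ratios of B cells was not tested.

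The genotype difference was then read in Fcer2a-positive and Fcer2a-negative cells. Among Fcer2a-positive cells, 0 of the 8 genes with at least 50 UMIs were past 1.5-fold, where 14% of all 1591 genes were. Nfatc1 fell short of 50 UMIs there, with 123 CPM (25 UMIs) in KO cells and 27.1 CPM (11 UMIs) in control cells, a ratio of 4.52 (2.15 to 10.2). Among Fcer2a-negative cells, 2 of 9 genes were past 1.5-fold, where 11.6% of all 3239 genes were. Nfatc1 had 179 CPM in KO cells and 76.9 CPM in control cells, a ratio of 2.33 (1.63 to 3.41). Cd72 had 135 CPM in KO cells and 284 CPM in control cells, a ratio of 0.474 (0.366 to 0.612), whereas in Fcer2a-positive cells it had 181 CPM in KO and 219 CPM in control cells, a ratio of 0.827 (0.548 to 1.23). Whether the Cd72 difference itself differs between positive and negative cells was not tested, and the intervals overlap.

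Because the Fcer2a-negative cells came from different clusters in the libraries, the ratios were also taken within clusters. In the Fcer2a-rich cluster only Nfatc1 of the 9 genes was past 1.5-fold, where 11.2% of all genes were. It had 112 CPM (81.0 to 152) in KO cells and 45.0 CPM (29.9 to 65.0) in control cells, a ratio of 2.50 (1.51 to 4.19). Cd72 had 206 CPM in KO cells and 246 CPM in control cells, a ratio of 0.839 (0.629 to 1.11). Cd72 was past 1.5-fold in the Fcrl5 cluster, with 70.1 CPM (49.1 to 97.1) in KO cells and 277 CPM (209 to 361) in control cells, a ratio of 0.253 (0.162 to 0.393). Nfatc1 there had 230 CPM in KO cells and 65.5 CPM in control cells, a ratio of 3.51 (1.98 to 6.79). In that cluster 6 of 9 genes were past 1.5-fold, where 22.8% of all genes were, with Cd79b at a ratio of 1.65, Ms4a1 at 1.57, Siglecg at 1.80 and Blnk at 1.56. That cluster holds 25 control cells, and its median depth was 3016.5 UMIs in KO cells and 5935 in control cells. A single control cell held 38371 of the 198596 control UMIs of the cluster. It had 3 Cd79b, 4 Ms4a1, 2 Siglecg, 4 Blnk and 0 Nfatc1 UMIs, which lowers the control CPM of these genes, and ratios without it were not taken. Per cell, the ratios of Cd79b, Ms4a1, Siglecg and Blnk were between 0.763 and 0.882, so the direction depends on the scale. In the Ifit3 cluster, with 19 KO cells and 16 control cells, Nfatc1 had 75.5 CPM in KO cells and 98.7 CPM in control cells and Cd72 had 269 CPM in KO and 274 CPM in control cells, with overlapping intervals.

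**Figure D5:**
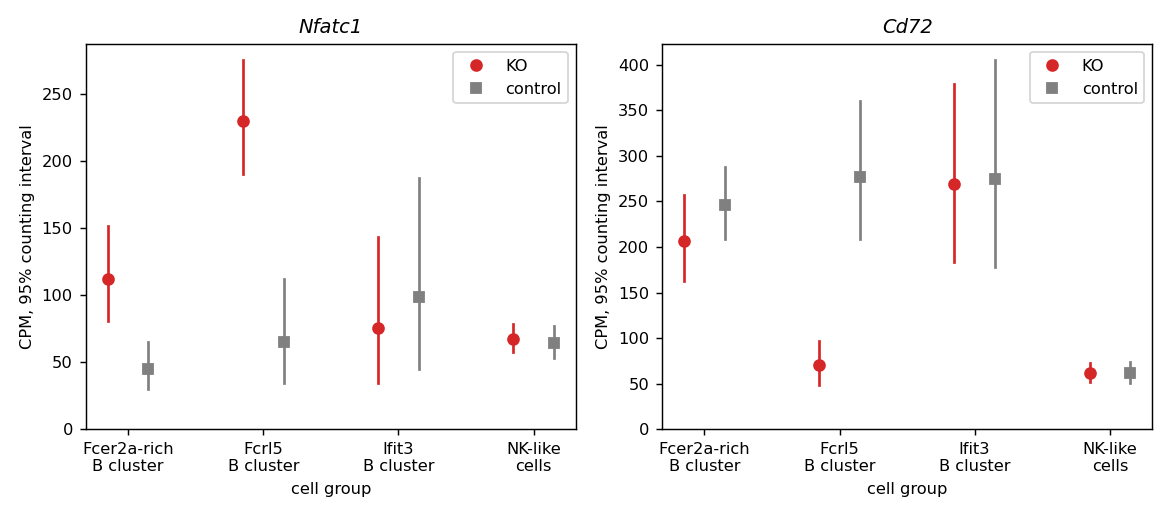
CPM of Nfatc1 (left) and Cd72 (right) in the 3 B cell clusters and in NK-like cells, KO in red left of control in grey, with 95% counting intervals on an axis from 0. Nfatc1 stands at 230 in KO and 65.5 in control cells of the Fcrl5 cluster, and Cd72 at 70.1 in KO and 277 in control cells of it.

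Other genes of the pathway gave the following picture between genotypes. Among all genes with at least 50 UMIs in B cells, 4.77% were 1.5-fold higher in KO B cells and 6.71% were 1.5-fold lower. None of 19 proximal genes was higher and 1, Pik3ap1, an adaptor to PI3-kinase named here after its value was seen, was lower, with 43.7 CPM in KO and 70.1 CPM in control B cells. Lyn, Csk, Grb2 and Ptprc had ratios between 0.953 and 1.02. Of the activating coreceptors, Cd81 had 299 CPM in KO B cells and 366 CPM in control B cells, a ratio of 0.817 (0.697 to 0.958), and Cr2 had a ratio of 0.735 (0.489 to 1.10). Of 8 inhibitory genes 3 were higher: Fcgr2b, the inhibitory Fc receptor, at a ratio of 1.53 (1.27 to 1.83), Fcrl5 at 2.36 (1.61 to 3.53) and the ubiquitin ligase gene Cblb at 1.73 (1.12 to 2.72). Fcrl5 gives its name to a cluster that holds more KO than control cells, and within that cluster its ratio was 1.14 (0.712 to 1.90). None of 9 calcium and NFAT genes was past 1.5-fold, and Nfatc3, a relative of Nfatc1, had 75.5 CPM in KO and 102 CPM in control B cells. Of 5 antigen-binding chains, Iglc1 was higher at a ratio of 1.96, and the near-identical lambda constant genes can share reads.

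Within each library, Fcer2a-positive and Fcer2a-negative B cells held all 9 genes, mostly at close levels. In KO B cells 0 of 9 genes were past 2-fold between Fcer2a-positive and Fcer2a-negative cells, where 7.88% of all 2539 genes were. In control B cells 1 of 9 was, Nfatc1, where 6.02% of all 2424 genes were. Nfatc1 had 27.1 CPM in Fcer2a-positive and 76.9 CPM in Fcer2a-negative control cells, a ratio of 0.352 (0.163 to 0.702), which rests on 11 and 39 UMIs. In KO cells it had 123 CPM in positive and 179 CPM in negative cells, a ratio of 0.683 (0.428 to 1.05). Whether these ratios differ between genotypes was not tested. Within the Fcer2a-rich cluster the control Nfatc1 ratio was 0.397 (0.168 to 0.899) on 28 UMIs, under the minimum of 50, and 0 of the 8 other genes were past 2-fold there, where 2.84% of all genes were. In KO cells of that cluster it was 0.959 (0.497 to 1.84), and 0 of 7 genes were past 2-fold, where 4.29% of all genes were.

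The signalling chains were slightly higher per UMI in Fcer2a-positive cells of both libraries, and lower per cell. Cd79a had 4821 CPM in positive and 4112 CPM in negative KO cells, a ratio of 1.17 (1.09 to 1.26), and 4938 CPM in positive and 4379 CPM in negative control cells, a ratio of 1.13 (1.06 to 1.20). Cd79b had 2560 CPM in positive and 2236 CPM in negative KO cells, a ratio of 1.14 (1.04 to 1.26), and 2803 CPM in positive and 2121 CPM in negative control cells, a ratio of 1.32 (1.21 to 1.44). Within the Fcer2a-rich cluster the Cd79a ratio was 0.974 in KO and 1.01 in control cells and the Cd79b ratio 0.979 in KO and 1.07 in control cells, and all 4 intervals held 1. Per cell the positive over negative ratio was 0.960 in KO and 0.802 in control cells for Cd79a, and 0.937 in KO and 0.940 in control cells for Cd79b. Ms4a1, Cd22, Cd72, Siglecg, Blnk and Btk had intervals that held 1 in both libraries. For comparison, Ighd, the heavy chain of naive B cells, was 3.61 times as high in positive as in negative KO cells and 2.60 times as high in control cells, and Ighm stood at ratios of 1.07 in KO and 0.923 in control cells.

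The Fcrl5 cluster was then set against the Fcer2a-rich cluster in each library; whether the ratios differ between libraries was not tested. In KO cells Cd72 had 70.1 CPM in the Fcrl5 cluster and 206 CPM in the Fcer2a-rich cluster, a ratio of 0.340 (0.223 to 0.512), and Nfatc1 had 230 CPM in the Fcrl5 cluster and 112 CPM in the Fcer2a-rich cluster, a ratio of 2.05 (1.43 to 2.98). These genes, 2 of 9, were past 2-fold, where 8.71% of all genes were. In control cells 1 of 8 genes, Cd79b, was past 2-fold, with 1370 CPM in the Fcrl5 cluster and 2802 CPM in the Fcer2a-rich cluster, a ratio of 0.489 (0.429 to 0.556), where 18.5% of all genes were. A single cell held 38371 of the 198596 UMIs of the control Fcrl5 cluster and 3 of its 272 Cd79b UMIs, which lowers this ratio. Cd72 in control cells had 277 CPM in the Fcrl5 cluster and 246 CPM in the Fcer2a-rich cluster, a ratio of 1.13 (0.813 to 1.54). Nfatc1 in control cells, with 41 UMIs in all, stood at a ratio of 1.46 (0.692 to 2.91), which overlaps the KO interval, and Cd79b in KO cells stood at 0.830 (0.762 to 0.904).

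KO B cells with a switched heavy chain could be set apart by their contigs. The 29 cells with an IgA or IgG contig had a median of 8094 UMIs, and the 244 cells with an IgM or IgD contig had 2643.5. Of the switched cells 20 of 29 lay in the Fcrl5 cluster, and of the unswitched cells 104 of 244. All 9 genes had lower CPM in the switched cells, and 4 of 9 were 2-fold lower, where 12.8% of all genes were. The median gene was itself lower, with a log2 ratio of -0.14. Divided by the median ratio of all genes, Cd72 stood at 0.538 and was no longer past 2-fold. Siglecg had 141 CPM in switched and 333 CPM in unswitched cells, a ratio of 0.424 (0.290 to 0.604). Blnk stood at 0.429 (0.296 to 0.606), Nfatc1 at 0.432 (0.262 to 0.679) and Cd72 at 0.488 (0.291 to 0.781). Cd79a had 3037 CPM in switched and 4770 CPM in unswitched cells, a ratio of 0.637 (0.588 to 0.689). Per cell every one of the 9 was higher in switched cells, with ratios between 1.29 and 2.41. A heavy-chain contig was found for 95.1% of KO B cells and 37.0% of control B cells, and the control library had 6 switched B cells outside the Jchain-high cells, too few to compare.

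Across cell types, 7 of the 9 genes were highest in B cells in each library, and the exceptions were shared with other lineages. In the KO library Cd72 stood at 171 CPM (121 to 236) in plasmacytoid dendritic cell-like cells and 144 CPM in B cells, and Btk at 122 CPM (69.9 to 199) in mast cell or basophil-like cells and 108 CPM in B cells, with overlapping intervals. In the control library Blnk had 407 CPM (337 to 486) in plasmacytoid dendritic cell-like cells and 265 CPM (233 to 301) in B cells, which did not overlap. Blnk in the KO library had 259 CPM (196 to 337) in plasmacytoid dendritic cell-like cells. Btk had 35.4 CPM in KO and 43.3 CPM in control macrophage or monocyte-like cells, and at most 0.418 CPM in NK-like cells of either library. Nfatc1 was spread most widely, with 31.5 to 79.2 CPM in the 5 named classes outside the B lineage plotted in the map of levels. In the KO library its level was 168 CPM in B cells and 111 CPM in the unnamed cluster led by Trdv4, Cxcr6 and Tcrg-V6. In the control library B cells ranked only 6 of 10 classes for Nfatc1, at 54.8 CPM. The highest were mast cell or basophil-like cells at 71.5 CPM (30.9 to 141), whose interval overlapped that of B cells. Cd79a had 208 CPM (152 to 279) in KO plasmacytoid dendritic cell-like cells and 0 UMIs in control ones, and it had 449 CPM (257 to 730) in 5 KO conventional dendritic cell-like cells. A single cell gave 91.1% of the 45 UMIs in the KO plasmacytoid class, and 1 cell gave all 16 in the conventional class. Each of these 2 KO classes held 1 cell with a heavy-chain contig, and the part of doublets was not tested. Cd79a had 205 CPM in KO T cell-like cells, 5 of 42 of which carried a heavy-chain contig, and 67.7 CPM in control T cell-like cells, of which 0 of 36 did.

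Over 18 points, the cell classes of both libraries with at least 20 cells, each gene was set beside all others by the Pearson correlation of log2(CPM + 10). These values describe the classes; the points of a library share its depth and free RNA. Cd22 was most like Bank1 (0.982), Ms4a1 most like Fcmr, the IgM Fc receptor (0.975), and Siglecg most like H2-DMb2 (0.962). Cd79a was most like Cd81 (0.947), Blnk most like Ly6d (0.946), and Cd79b most like Tnfrsf13c, the BAFF receptor (0.937). Nfatc1 was most like Ptpn18 (0.923), Btk most like Lyl1 (0.891) and Cd72 most like Ly6e (0.883). Among the 9 genes themselves, Ms4a1 and Cd22 were closest (0.947), followed by Cd79a with Ms4a1 (0.913) and Cd79a with Cd79b (0.901), whereas Nfatc1 and Cd79a had 0.068.

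Single cells held several of the 9 genes at once. After thinning to 1500 UMIs, B cells had a median of 4 of the 9 in both libraries, Jchain-high cells had 2, and NK-like cells had 0. Cd79a and Cd79b were both seen in 96.0% of KO B cells and 92.7% (88.6 to 95.7) of control B cells. In KO NK-like cells the share was 0.714%. In the Fcrl5 cluster it was 96.9% (92.1 to 99.1) of 127 KO cells and 72.0% (50.6 to 87.9) of 25 control cells, and in the Fcer2a-rich cluster 97.7% of KO and 96.9% of control cells. None of the 9 genes was seen in 2 of these 127 KO cells and 2 of these 25 control cells of the Fcrl5 cluster.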

How the data were processed

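UMI counts per gene and barcode were deposited by the authors as filtered matrices, for which the submitters' processing notes name Cell Ranger 6.0.0 and GRCm38 (mm10), and V(D)J contigs were deposited as tables with UMI counts. No normalization was applied to the deposited counts. The 9 genes, the pathway lists and the markers were chosen with earlier results of these data known. Barcodes with under 200 genes, over 10% mitochondrial UMIs, a doublet call by Scrublet in Scanpy 1.11.5 (2 KO, 3 control) or 2 heavy chains (6 KO) were removed. Cells were clustered with 2000 variable genes, 30 components, 15 neighbours and Leiden resolution 1, without the 9 genes, Fcer2a, Jchain and immunoglobulin genes. The clusters were named by their marker level over the median of the other clusters, a rule set after the clusters were seen. UMIs were summed per group. Intervals are exact Poisson for CPM, exact conditional binomial for ratios and Clopper-Pearson for shares, at 95%, with SciPy 1.17.1. A count of 0 was set to 3 for bounds. Genes with at least 50 UMIs over the 2 groups entered counts, past 1.5-fold between genotypes and 2-fold between kinds of cells. Named are the 9 genes, up to 6 genes per pathway list with the most UMIs, Ighm, Ighd and Fcgr2b, and for each member the most alike genes; 1 gene that this rule names is not reported here. The ratio and its interval were tested on simulated Poisson counts, which hold no variation between cells, so the test does not cover such variation. Pik3ap1 was named after its value was seen. The alternatives were other cell definitions, scalings, filters and depths.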

Additional observations from a re-analysis of the deposited data

Results flagged for a closer look

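The Ms4a1 ratio between B cell clusters lay on opposite sides of 1 in the libraries per UMI, but not per cell. In KO cells it had 1379 CPM in the Fcrl5 cluster and 1108 CPM in the Fcer2a-rich cluster, a ratio of 1.25 (1.10 to 1.41). In control cells it had 881 CPM in the Fcrl5 cluster and 1063 CPM in the Fcer2a-rich cluster, a ratio of 0.829 (0.698 to 0.981). The intervals cover counting error only. Per cell Ms4a1 was higher in the Fcrl5 cluster of both libraries, with ratios of 1.76 in KO and 2.08 in control cells. The difference between these ratios was not tested, the control Fcrl5 cluster has 25 cells, and the median depth of that cluster was 3016.5 UMIs in KO cells and 5935 in control cells. A single control cell held 38371 of the 198596 control UMIs of that cluster and 4 of its 175 Ms4a1 UMIs, which lowers the control Ms4a1 CPM there. The ratio without that cell was not taken.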

How the results depend on the processing

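No paired analysis was possible because each genotype has 1 expression library. The count of genes past 1.5-fold in KO over control B cells, 2, was 1 in the Fcer2a-rich cluster alone and 6 in the Fcrl5 cluster alone, settings chosen after seeing the data. In the Fcrl5 cluster 1 control cell held 38371 of the 198596 control UMIs, and the count without it was not taken. For Fcer2a-positive over Fcer2a-negative cells, the count of 0 in KO cells became 1 (Nfatc1 lower) with 2 or more Fcer2a UMIs and with the mean of per-cell CPM. The count of 1 in control cells became 0 with 2 or more Fcer2a UMIs, by clusters, by heavy-chain contig and within the Fcer2a-rich cluster. Within that cluster Nfatc1 left the count because its 28 UMIs were under the minimum of 50, and its ratio there was 0.397. The Nfatc1 ratio was 0.301 to 0.592 over its 7 alternatives, all inside the main interval. For Jchain-high over B cells, the count of 9 became 5 by mean UMIs per cell, with Blnk higher; there Cd79b, Blnk and Btk turned to ratios of 1.03, 2.49 and 1.18. Nfatc1 kept a KO over control ratio of 2.47 to 3.98 and Cd72 one of 0.253 to 0.839 over 11 alternatives each. The small Ifit3 cluster alone was not among these alternatives. There Nfatc1 was lower in KO than in control cells and Cd72 was nearly alike, both with overlapping intervals. Of 459 single-gene values under alternatives, 400 lay inside the main counting interval and 47 on the other side of 1 from the main value. Among these 47 were 3 ratios past 2-fold, named above, and, in KO over control B cells, Cd79a at up to 1.28 and Cd79b at up to 1.65, both in the Fcrl5 cluster. Few UMIs limit Nfatc1, Btk, Cd22 and Cd72, and 47 Jchain-high cells of 1 library limit the plasma cell values.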
